A study of Mus musculus with 4 samples.

Results

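Interferon response genes were described here in GFP-sorted blasts of a mouse megakaryoblastic leukemia (M7), as a list of 41 genes chosen by name for their place in the interferon response, with earlier results of these data known. A gene entered with every probe set that the platform annotation pairs with that gene alone, and its value came from the brightest of these, by the mean of the log2 values. Of the 41 genes, 39 had such a probe set, out of 18193 genes on the array, with 64 probe sets between them. The leukemia arose in mice by retroviral insertional mutagenesis of fetal progenitors that carry Gata1s, a mutant Gata1, and the retrovirus also carried the GFP reporter by which the blasts were sorted. The groups were blasts from spleen, 2 arrays, and blasts from peripheral blood, 2 arrays, with 1 array of each tissue from each of mouse 1 and mouse 2. All 4 arrays share the Gata1 mutation and the leukemia designation T6(6), the mice had no treatment, and the cells were not cultured. The labels give no age or strain. With 1 leukemia designation and 2 mice, p-values and standard errors (SE) reach no further than these animals. Both are moderated, so a gene's own spread between arrays is drawn toward that of all genes tested. The main fit leaves out the pairing by mouse.

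Interferons are secreted proteins that cells release on sensing viral or displaced nucleic acid. Type I interferon binds a receptor whose kinases, Jak1 and Tyk2, phosphorylate Stat2. It works with Irf9 at a DNA element called ISRE, which lies before genes that block viral growth. Type II interferon (Ifng) works through another element, GAS, and it induces Irf1 and the immunity GTPases. Many of these genes also have a basal level in blood cells that meet no virus.

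The promoters of the list were read from RefSeq for mouse build GRCm38.p6, from 250 bases before to 50 bases after each gene start, and 32 of the 41 genes had an entry. The ISRE core was searched on both strands as GAAA, any 2 bases and GAAA again. It was found in 16 of the 32 genes, against 3.99% of all 27025 genes with an entry, and in 13 of the 32 it lay wholly before the start. The GAS core, TTCNNNGAA, was found in 9 of the 32 genes, against 9.55% of all genes. Both strands were searched for it too, and in 1 window the elements overlapped. A match is a run of letters and not a measured binding site. The stretches below belong to genes whose values follow, and are shown 5′ to 3′ on the strand of the gene with the GAS core of Irf1 and the ISRE cores of the others in capitals.
Irf1, chr11:53769899-53769957, plus strand: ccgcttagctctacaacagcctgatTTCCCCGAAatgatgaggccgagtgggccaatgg
Stat2, chr10:128270251-128270310, plus strand: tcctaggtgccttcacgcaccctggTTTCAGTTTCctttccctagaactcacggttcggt
Ifit1, chr19:34640760-34640838, plus strand: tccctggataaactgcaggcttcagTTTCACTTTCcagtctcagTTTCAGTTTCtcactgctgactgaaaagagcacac
Ifit3, chr19:34583348-34583441, plus strand: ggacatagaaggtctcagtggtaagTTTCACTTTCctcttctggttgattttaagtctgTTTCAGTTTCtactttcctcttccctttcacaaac
Oas1a, chr5:120907526-120907570, minus strand: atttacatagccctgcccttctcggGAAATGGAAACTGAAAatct
Igtp, chr11:58199497-58199555, plus strand: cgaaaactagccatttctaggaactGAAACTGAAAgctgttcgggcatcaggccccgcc
Irgm1, chr11:48871421-48871475, minus strand: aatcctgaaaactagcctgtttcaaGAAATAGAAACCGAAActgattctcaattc
Gbp2, chr3:142620579-142620638, plus strand: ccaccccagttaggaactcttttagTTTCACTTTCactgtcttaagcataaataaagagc
Rsad2, chr12:26456538-26456597, minus strand: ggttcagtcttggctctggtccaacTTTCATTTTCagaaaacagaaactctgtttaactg
Ifit1, Ifit3, Oas1a and Irgm1 each held 2 ISRE matches, which are apart in Ifit1 and Ifit3 and overlap in Oas1a and Irgm1. The stretch of Igtp also holds a GAS core, at -45 from the gene start, which is left in lower case.

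The arrays were alike in brightness, with medians between 103.7 and 110.6. The log2 values of tested genes correlated between r = 0.964 and r = 0.983 across genes for any pair of arrays, and genes are not independent replicates. The 2 arrays of mouse 2 correlated least. Of the megakaryocyte genes, Pf4 (platelet factor) and Itga2b (a platelet integrin chain) lay between 4237 and 8680 on every array, while Itgb3 lay between -4.17 and 123. Of 5 megakaryoblast genes tested, 4 were higher in spleen in both mice, against 38.5% of all 11614 genes tested, and 0 were lower in both, against 25.1%. Gp1bb, a chain of the platelet von Willebrand receptor, had 889 and 863 in spleen of mouse 1 and mouse 2, against 479 and 353 in blood, a difference of 1.06 ± 0.16 (SE, limma adjusted p = 0.143). The differences were 0.23 ± 0.13 for Gata1, 0.18 ± 0.11 for Gp9, 0.16 ± 0.11 for Pf4 and 0.07 ± 0.13 for Itga2b, and the part of these values in the interferon result was not tested. Intensities are on the authors' linear scale, whose probe summary and scaling are not given in the sources used here. Differences are on log2(intensity + 16) with values below 0 set to 0, a scale that shrinks differences of dim genes.

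Most of the list was at a clear level in the samples of both tissues. Genes were tested at a mean of 106 or more, which is the median probe set, and 38 of the 41 passed. Bst2 (tetherin, which holds budding virus at the cell surface) did not, with intensities of 64.8 and 83.3 in spleen of mouse 1 and mouse 2, against 70.6 and 84.8 in blood. Mx1, with a mean of 165, was the dimmest gene that passed. Isg15 is not analysed here because its probe set is paired with a second gene as well, and Ifi44 is not analysed here. A mean of at least 1000 was reached by 27 of the 38 tested genes, against 22.6% of all 11614 genes tested. Probes differ in brightness, so this is a description of the signals and not a ranking of transcripts.

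**Figure D1:**
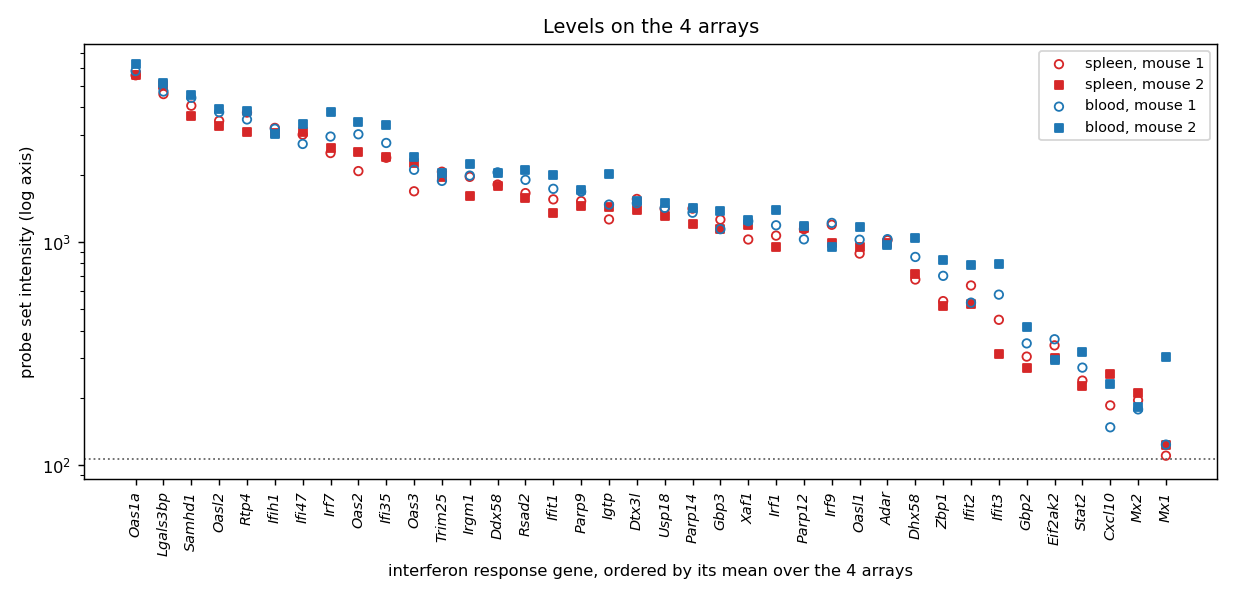
Probe set intensity (log axis) of the 38 tested interferon response genes on each of the 4 arrays, with spleen in red, blood in blue, mouse 1 as open circles and mouse 2 as filled squares. The dotted line is the brightness filter of 106. The filled blue square of mouse 2 blood is the highest point for 29 of the genes.

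Against blood, the spleen samples had lower values of most of these genes, by small amounts, and no single gene passed the test. Markers of other blood cells varied on the same arrays, as given below, and their part in these values was not tested. Of the 38 tested genes, 24 had a lower spleen value in each mouse, 3 were higher in both and 11 went opposite ways in the mice. Over all genes tested, 25.1% were lower in both mice, 38.5% were higher in both and 36.4% went opposite ways. The median difference of the list was -0.18, with -0.12 in mouse 1 and -0.26 in mouse 2, against 0.03 over all genes, with 0.07 in mouse 1 and 0.01 in mouse 2. Both spleen arrays lay below both blood arrays for 21 of the 38, against 17.6% of all genes, and above them for 1, against 27.5% of all genes.

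With limma, 0 of the 38 had an adjusted p under 0.05, as had 0% of the 11614 genes tested, and the smallest adjusted p of the list was 0.253. At an unadjusted p under 0.05, 11 of the 38 were lower in spleen, against 4.31% of all genes, and 0 were higher, against 8.12%. The 11 genes were Zbp1, Ifit3, Oas2, Dhx58, Gbp2, Ifit1, Stat2, Rsad2, Ifi35, Irf1 and Irf7. The median difference of the list was -0.16 without blood of mouse 2 and -0.14 without spleen of mouse 2, against 0.04 and 0.05 over all genes. It was -0.21 without spleen of mouse 1 and -0.21 without blood of mouse 1, against 0.01 and 0.02 over all genes. Of the 24 genes lower in both mice, 10 had a difference smaller by over 1.5 times without blood of mouse 2, namely Ifi35, Igtp, Irf7, Irgm1, Lgals3bp, Mx1, Oas1a, Oas3, Oasl1 and Usp18, with Lgals3bp turning sign. That number was 3 without spleen of mouse 1, 3 without spleen of mouse 2 and 0 without blood of mouse 1. Without spleen of mouse 1, 1 gene turned sign. A difference larger by over 1.5 times was seen for 3 genes without blood of mouse 1 and 3 without spleen of mouse 2. It was seen for 1 without spleen of mouse 1 and 0 without blood of mouse 2. The share of all genes with such changes is not given here. With 2 arrays against 2, an exact two-sided permutation test of a single value cannot give less than 0.333.

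**Figure D2:**
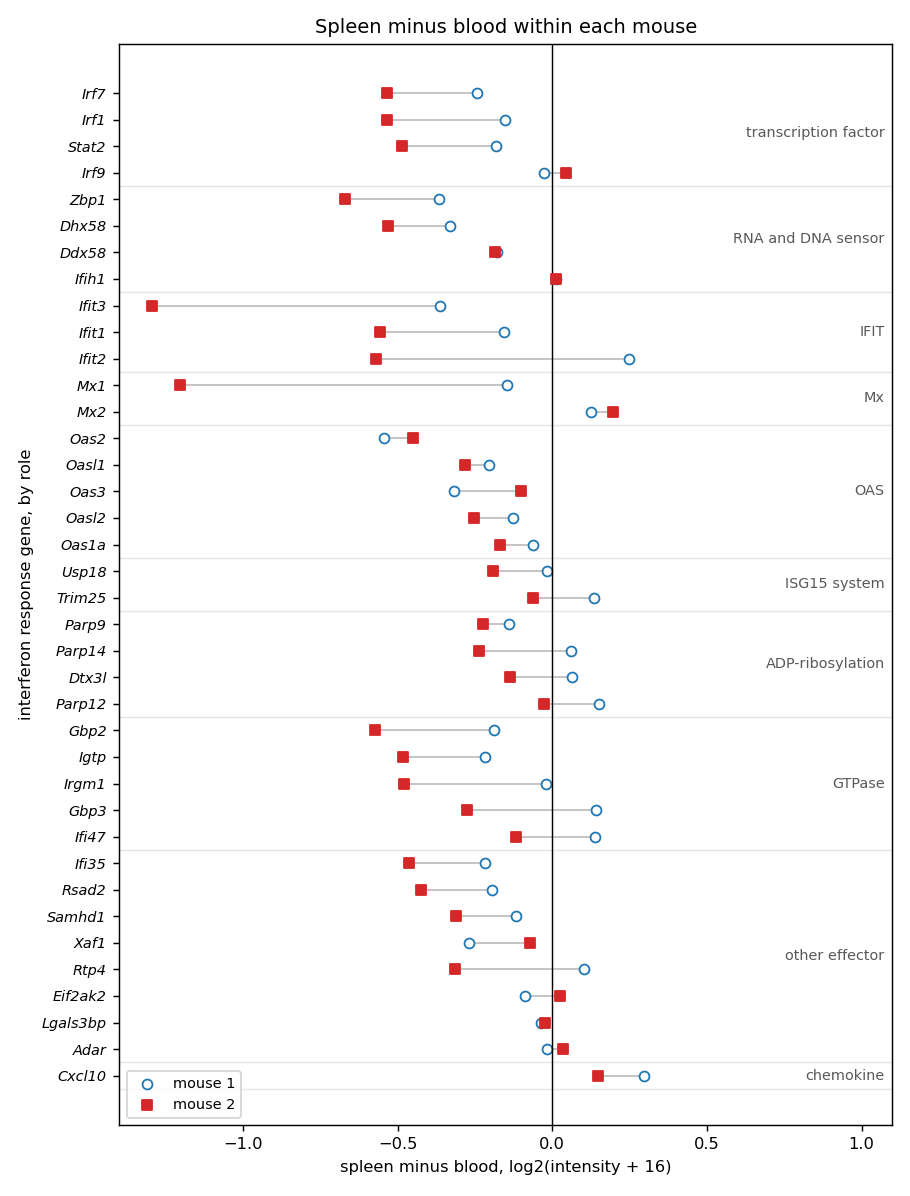
Spleen minus blood on the log2(intensity + 16) scale within mouse 1 (open circles) and within mouse 2 (filled squares), for each of the 38 tested genes, grouped by role. Points left of the line at 0 are lower in spleen, which holds in both mice for 24 genes, and the square of mouse 2 lies left of the circle of mouse 1 for 29.

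Of the transcription factors, Irf7, the factor that amplifies interferon-alpha production, had intensities of 2498 and 2632 in spleen of mouse 1 and mouse 2, against 2962 and 3823 in blood. Irf1, an activator induced mainly by Ifng, had 1066 and 949 in spleen, against 1186 and 1382 in blood. Stat2 had 239 and 225 in spleen, against 273 and 321 in blood. In all 3 genes both spleen arrays lay below both blood arrays, against 17.6% of all genes. Blood of mouse 2 was highest in each, against 26.9% of all genes. The differences were -0.39 ± 0.15 for Irf7, -0.34 ± 0.13 for Irf1 and -0.33 ± 0.13 for Stat2 (SE, 2 arrays per tissue). Their adjusted p-values were 0.387, 0.387 and 0.377, and without blood of mouse 2 the difference of Irf7 became -0.21. Irf9, the DNA-binding partner of Stat2, had 1192 and 983 in spleen, against 1215 and 953 in blood. Its spleen and blood values overlapped, with a higher level in mouse 1 in both tissues, and its difference of 0.01 ± 0.17 turned negative under quantile normalization and with arrays centred on the median. The second probe set of Stat2 differed by -0.12 in mouse 1 and -0.50 in mouse 2.

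Of the 4 sensors of nucleic acid, 3 were lower in spleen in both mice, against 25.1% of all genes, and 1 was near 0. Zbp1, which senses Z-form nucleic acid and can start necroptosis, had 542 and 516 in spleen, against 704 and 832 in blood. Dhx58 (LGP2), a helicase that tunes RNA sensing, had 677 and 716 in spleen, against 855 and 1042 in blood. Neither gene's groups overlapped, and the differences were -0.52 ± 0.13 for Zbp1 (adjusted p = 0.253) and -0.43 ± 0.14 for Dhx58 (adjusted p = 0.335). A dimmer probe set of Dhx58, between 128 and 147 on the arrays, went the other way, by 0.19 in mouse 1 and 0.10 in mouse 2. Below the filter, the last probe set of Dhx58 differed by -0.18 and -0.22. The other probe set of Zbp1, also below it, differed by 0.41 in mouse 1 and -0.03 in mouse 2. Ddx58 (RIG-I), a sensor of viral RNA ends, had 1805 and 1778 in spleen, against 2047 and 2024 in blood. That is a difference of -0.18 in each mouse. Ifih1 (MDA5), the sensor of long double-stranded RNA, had 3239 and 3078 in spleen, against 3210 and 3049 in blood, with overlapping groups and a difference of 0.01 ± 0.11 that turned negative under the same settings as that of Irf9.

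Of the IFIT proteins, Ifit1 binds viral RNA that lacks the cap methylation of host mRNA. Ifit3 had 447 and 315 in spleen, against 580 and 794 in blood. It was lower in spleen 1.29-fold in mouse 1 and 2.45-fold in mouse 2, with a difference of -0.83 ± 0.22 (adjusted p = 0.277), the lowest of the 38 genes. Ifit1 had 1549 and 1351 in spleen, against 1727 and 1993 in blood, a difference of -0.36 ± 0.14. The groups did not overlap for either gene. Ifit2 had 637 and 527 in spleen, against 534 and 790 in blood, so it was higher in spleen in mouse 1 and lower in mouse 2.

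Of the Mx proteins, dynamin-like GTPases that trap viral particles, Mx1 had 110 and 123 in spleen, against 123 and 305 in blood. The value in blood of mouse 2 stood alone, and without that array the difference of -0.67 ± 0.37 became -0.07. Mx2 had 195 and 211 in spleen, against 177 and 182 in blood, and was the 1 gene of the list with both spleen arrays above both blood arrays. Its difference was 0.16 ± 0.11 (adjusted p = 0.591).

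The OAS enzymes make oligoadenylates that switch on an RNase, and the OAS-like proteins are their relatives. Each of the 5 had a negative difference in mouse 1 and in mouse 2, against 25.1% of all genes. Oas2 had 2074 and 2516 in spleen, against 3033 and 3447 in blood, a difference of -0.50 ± 0.14 (adjusted p = 0.310). Oas2, unlike most of the list, was lower by more in mouse 1, -0.54, than in mouse 2, -0.45. Oas1a had 5575 and 5581 in spleen, against 5824 and 6279 in blood, and Oasl2 had 3485 and 3304 in spleen, against 3810 and 3938 in blood. Their groups did not overlap, yet the differences were only -0.12 ± 0.11 and -0.19 ± 0.11. Oasl1, which restrains Irf7 translation, had 885 and 951 in spleen, against 1022 and 1161 in blood. Oas3 had 1684 and 2247 in spleen, against 2102 and 2409 in blood, with overlapping groups.

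Genes of the Isg15 system and of ADP-ribosylation had mixed directions. Usp18, which removes the ubiquitin-like Isg15 and dampens the type I receptor, had 1404 and 1306 in spleen, against 1420 and 1493 in blood, a difference of -0.10 ± 0.11. Trim25, the ubiquitin ligase that helps RIG-I, had 2061 and 1955 in spleen, against 1875 and 2040 in blood, a difference that turned negative under quantile normalization. Its other 2 probe sets were both higher in spleen in both mice, by 0.13 to 0.37. Parp9 and Dtx3l form a complex that joins ADP-ribosylation to ubiquitin transfer. Parp9 had 1522 and 1452 in spleen, against 1679 and 1699 in blood, and Dtx3l had 1556 and 1384 in spleen, against 1489 and 1524 in blood. Parp9 was thus lower in spleen in both mice by -0.14 and -0.22, whereas Dtx3l went opposite ways by 0.06 and -0.14, and its other probe set was higher in spleen in both mice. Parp12 and Parp14, ADP-ribosyltransferases, also went opposite ways, with differences of 0.06 ± 0.12 and -0.09 ± 0.13.

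Immunity GTPases are induced strongly by Ifng and attack the vacuoles of intracellular microbes. Gbp2 had 306 and 273 in spleen, against 350 and 415 in blood, a difference of -0.38 ± 0.14 (adjusted p = 0.361), and its second probe set differed by -0.22 in mouse 1 and -0.53 in mouse 2. Igtp had 1260 and 1434 in spleen, against 1468 and 2010 in blood, a difference of -0.35 ± 0.18 that became -0.13 without blood of mouse 2. Irgm1, which also regulates autophagy, had 1954 and 1602 in spleen, against 1980 and 2240 in blood. In these 3 genes both spleen arrays lay below both blood arrays, against 17.6% of all genes. The difference of Irgm1, though, was -0.02 in mouse 1 and -0.48 in mouse 2. Gbp3 had 1257 and 1137 in spleen, against 1139 and 1380 in blood, and Ifi47 had 3021 and 3090 in spleen, against 2744 and 3356 in blood. Both overlapped between the tissues and were higher in spleen in mouse 1 alone, and the mean difference of Ifi47 turned negative under quantile normalization and centring.

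Among other effectors, Rsad2 (viperin, which makes a chain-terminating nucleotide) had 1653 and 1565 in spleen, against 1895 and 2107 in blood. Its difference was -0.31 ± 0.12 (adjusted p = 0.377), and its other 2 probe sets were lower in spleen in both mice as well. Ifi35, an interferon-induced leucine zipper protein, had 2380 and 2406 in spleen, against 2772 and 3322 in blood, a difference of -0.34 ± 0.13, again with all 3 probe sets lower in both mice. Samhd1, which depletes the nucleotides that reverse transcription needs, had 4073 and 3672 in spleen, against 4417 and 4556 in blood. Its probe set of highest mean differed by -0.12 in mouse 1 and -0.31 in mouse 2, another by -0.48 and -0.94, and the other 2 above the filter by -0.09 and 0.05 and by -0.03 and -0.05. Xaf1, an antagonist of an apoptosis inhibitor, had 1024 and 1187 in spleen, against 1237 and 1250 in blood, while its dimmer probe set had 331 and 266 in spleen, against 343 and 589 in blood.

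The remaining effectors differed little or went opposite ways. Lgals3bp, a secreted galectin-binding glycoprotein, had 4592 and 5058 in spleen, against 4715 and 5138 in blood, with differences of -0.04 and -0.02 in mouse 1 and mouse 2. Adar, the enzyme that edits adenosine in double-stranded RNA, had 1016 and 987 in spleen, against 1028 and 964 in blood, a difference whose sign turned under quantile normalization and centring. Eif2ak2 (PKR), the kinase that stops translation on double-stranded RNA, had 343 and 302 in spleen, against 366 and 296 in blood. Rtp4 had 3794 and 3108 in spleen, against 3534 and 3865 in blood. The spleen and blood values of these 4 genes overlapped. The chemokine Cxcl10, which attracts activated T cells, had 185 and 257 in spleen, against 147 and 230 in blood, a difference of 0.22 ± 0.24 (adjusted p = 0.739).

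Other probe sets were compared for the 15 genes with more than 1. Of 19 further probe sets above the filter, 15 had the sign of the one used and 4 did not, namely 2 of Adar and 1 each of Dhx58 and Dtx3l. When all probe sets of a gene were averaged, 25 of 38 genes were lower in both mice, against 26.3% of all genes.

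The tested genes with an ISRE core in the promoter window, 14 in number, had median differences of -0.17 in mouse 1 and -0.35 in mouse 2, with 10 lower in both. The 15 with an entry and no match had -0.04 and -0.14, with 8 lower in both. The 9 without an entry had -0.14 and -0.31, with 6 lower in both. Over all genes tested, 25.1% were lower in both mice. No test was made between these sets. Single genes cut across them, since Ifih1, with a difference of 0.01, holds a match, and Irf7, with -0.39, holds none.

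**Figure D3:**
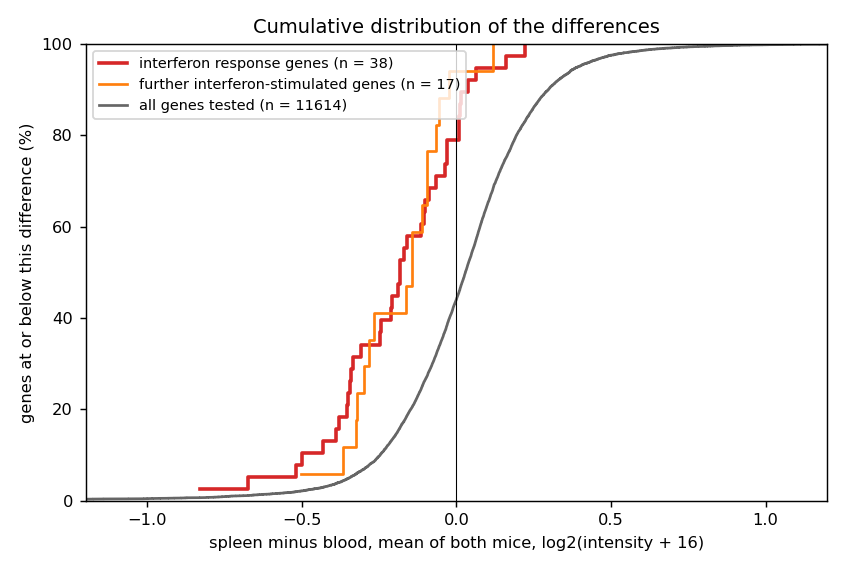
Cumulative share of genes (%) against the spleen minus blood difference, mean of both mice, on the log2(intensity + 16) scale. The line of the 38 interferon response genes (red, median -0.18) and that of 17 further interferon-stimulated genes (orange, median -0.14) lie left of that of all 11614 genes tested (grey, median 0.03).

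The mice were set side by side with no test, as there is a single array for a tissue of a mouse. In blood, the median difference of mouse 2 minus mouse 1 was 0.18 for the list, against 0.02 for all genes. In spleen it was -0.07 for the list, against -0.04 for all genes. Blood of mouse 2 was the highest array for 29 of the 38 genes, against 26.9% of all genes. Blood of mouse 2 was highest and spleen of mouse 2 lowest for 16 of the 38, against 11.9% of all genes. The difference of spleen and blood was lower in mouse 2 than in mouse 1 for 29 of the 38, against 60.6% of all genes.

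Genes that carry the interferon signal, a list of 43 that holds ligands, receptors, kinases, IRF factors, sensor pathway and feedback genes, were fitted in the same way. Of 31 tested, 0 had an adjusted p under 0.05 with limma, 4 were lower and 1 higher at an unadjusted p under 0.05, against 4.31% and 8.12% of all genes. In both mice 14 were lower and 8 higher, against 25.1% and 38.5% of all genes. Of the ligands, the probe sets of Ifnb1, Ifna1, Ifna5 and Ifng lay below the filter, with Ifnb1 between 42.2 and 49.7. Ifna4 had 448 and 504 in spleen, against 387 and 418 in blood, and Ifna2 had 127 and 120 in spleen, against 171 and 118 in blood. Interferon-alpha genes are near-identical copies, so a probe set may read several of them.

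The receptor chains were at modest intensities. Ifnar1 had 295 and 236 in spleen, against 233 and 234 in blood, and Ifnar2 had 488 and 443 in spleen, against 472 and 492 in blood. The differences were 0.16 ± 0.14 for Ifnar1 and -0.05 ± 0.12 for Ifnar2, and both turned sign when all probe sets of a gene were averaged. The Ifng receptor chain Ifngr1 had 414 and 345 in spleen, against 403 and 574 in blood, and Ifngr2 had 122 and 85.5 in spleen, against 111 and 152 in blood. Both were highest in blood of mouse 2. Il10rb, a chain shared with the interleukin-10 family, had 176 and 182 in spleen, against 186 and 252 in blood. Ifnlr1, the interferon-lambda receptor, was below the filter on all arrays, between 10.1 and 24.9.

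Of the kinases, Tyk2 had 313 and 393 in spleen, against 412 and 497 in blood, a difference of -0.35 ± 0.16. Jak1 and Jak2 differed by -0.08 ± 0.11 and -0.19 ± 0.14, which became -0.03 for Jak1 without blood of mouse 2 and -0.04 for Jak2 without spleen of mouse 2. Irf3, the factor that starts interferon-beta transcription, had 1122 and 1267 in spleen, against 1419 and 1610 in blood. Its difference was -0.34 ± 0.13 (limma adjusted p = 0.378), and -0.15 when all its probe sets were averaged. Irf2 and Irf4 were lower in spleen in both mice too, by -0.19 ± 0.13 and -0.30 ± 0.12. The adaptor genes of the sensors differed in opposite directions. Mavs, the mitochondrial adaptor of RIG-I and MDA5, had 333 and 265 in spleen, against 197 and 181 in blood, a difference of 0.61 ± 0.14 (adjusted p = 0.227). Sting1, the adaptor of cytosolic DNA sensing, had 103 and 123 in spleen, against 192 and 179 in blood, a difference of -0.64 ± 0.13 (adjusted p = 0.188). Their groups did not overlap in either case, and neither passed the test.

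Of the phosphatases that damp the signal, Ptpn6 had 2300 and 2084 in spleen, against 2591 and 3255 in blood, and Ptpn1 had 1042 and 1015 in spleen, against 1188 and 1401 in blood. Ptpn11 went the other way, with 4205 and 4224 in spleen, against 3624 and 3352 in blood. Tlr3, a receptor for double-stranded RNA, had 113 and 83.9 in spleen, against 136 and 114 in blood. Of 17 further interferon-stimulated genes that passed the filter, from a list of 20, 0 had an adjusted p under 0.05 with limma, and 1 was lower at an unadjusted p under 0.05, against 4.31% of all genes. In both mice 13 were lower and 1 was higher, against 25.1% and 38.5% of all genes. Helz2, a helicase, had 1017 and 871 in spleen, against 1175 and 1530 in blood, a difference of -0.50 ± 0.17. Sp100 and Sp110, nuclear body proteins, differed by -0.30 ± 0.14 and -0.28 ± 0.14.

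Markers of other blood cells varied on the same arrays. The summed intensity of the interferon response genes was 63912 and 62611 in spleen of mouse 1 and mouse 2, against 68083 and 75281 in blood. That of the 9 neutrophil markers with a probe set was 4115 and 1129 in spleen, against 6792 and 17086 in blood. Each of the 8 tested was lower in spleen in both mice, against 25.1% of all genes. Monocyte and macrophage markers summed to 1995 and 1201 in spleen, against 1838 and 4278 in blood, with 2 of 8 tested lower in both mice, a share near that of all genes. T and NK cell markers summed to 8398 and 5113 in spleen, against 7063 and 10125 in blood. Of 9 tested, 3 were lower in spleen in both mice, against 25.1% of all genes. MHC class II and dendritic cell markers summed to 2215 and 1753 in spleen, against 1551 and 3937 in blood. Of 6 tested, 2 were lower in spleen in both mice, against 25.1% of all genes. Blood of mouse 2 had the highest sum for each of these lists, as for the interferon response genes. Of the T and NK cell markers, Nkg7, Gzma, Gzmb, Ncr1 and Klrd1 were highest on that array, whereas Cd3e, Cd3d, Cd3g and Cd4 were highest in blood of mouse 1 and Cd8a in spleen of mouse 1.

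Markers of plasmacytoid dendritic cells, which make much type I interferon, summed to 1797 and 2091 in spleen, against 1988 and 2216 in blood. Of 3 tested, 2 were lower in spleen in both mice, against 25.1% of all genes. The sum rested mainly on Klk1, with 940 and 1008 in spleen, against 958 and 1112 in blood. Next came Ccr9, with 587 and 772 in spleen, against 692 and 735 in blood. Cox6a2 had 127 and 143 in spleen, against 170 and 193 in blood. Its differences were -0.38 in mouse 1 and -0.39 in mouse 2, and its groups did not overlap. Siglech, a defining gene of that cell, was below the filter at 58.2 and 73.9 in spleen, against 73.5 and 68.4 in blood. Ly6d and Pacsin1 were below the filter too. The 3 B cell markers with a probe set were below the filter, and their sums lay between 117 and 122 in spleen and between 122 and 128 in blood. Camp and Ly6d were at or below 0 in spleen of mouse 2, at -6.46 and -2.57. In mouse 1 the median differences were 0.16 for monocyte and macrophage markers, 0.03 for T and NK cell markers and 0.57 for the MHC class II list. The same lists had medians of -1.13, -0.67 and -1.19 in mouse 2, in that order. In mouse 1, 27 of the 38 interferon response genes were lower in spleen, against 37.7% of all genes. In mouse 2 the count was 32 of the 38, against 48.9% of all genes. The neutrophil markers had a median of -0.34 in mouse 1 and -3.42 in mouse 2. Their part in the lower values of the interferon response genes was not tested. In these bulk samples, fewer cells of a type and less RNA per cell cannot be told apart.

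**Figure D4:**
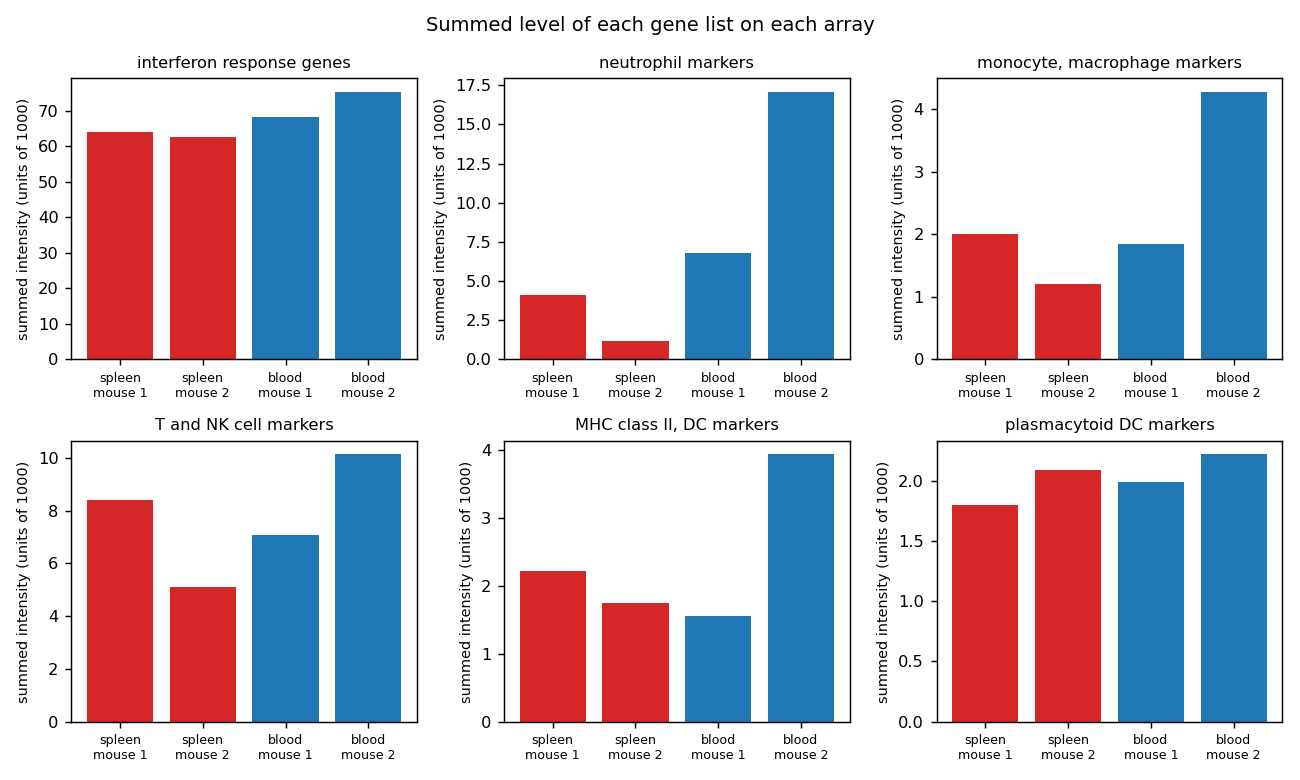
Summed probe set intensity (axis in units of 1000, bars from 0) of the 39 interferon response genes and of 5 lists of blood cell markers, on the 2 spleen arrays (red) and the 2 blood arrays (blue). Blood of mouse 2 is the highest bar in every panel, and the neutrophil sum runs between 1129 and 17086.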

How the data were processed

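RNA of sorted blasts was hybridised to 4 Affymetrix mouse arrays as biotinylated cRNA, per the labels' protocols. The deposited table holds a linear intensity for each probe set, as its range shows, with between 1.60% and 2.17% of an array below 0. The authors' probe summary and scaling are not given in the sources used here. Of 45101 probe sets, 34945 were paired with 1 gene, 932 with several and 9160 are unnamed here, and 64 are controls. Symbols were updated through the Entrez identifier for 34741 of those with 1 gene with a RefSeq table of GRCm38.p6.

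Values below 0 were set to 0 and 16 was added before log2. Spleen and blood were compared by a two-sided moderated test in limma 3.58.1 under R 4.3.3, fitted on tissue alone, with Benjamini-Hochberg adjustment over all 11614 genes. The test was checked on simulated data with 200 genes changed by more than any gene of the list differed here. That check does not show how the test performs at smaller differences. Arrays with the same number come from 1 animal, per the labels, and are paired, although the mouse differences in spleen and in blood correlated at only r = 0.10 across genes. Alternatives were mouse as a block, an intensity trend, offsets of 1 and 64, no filter and a stricter filter, quantile normalization, centring, the mean of all probe sets, and leaving out each array. Genes given with all array values were the 8 that differed most by the smaller of their same-signed within-mouse differences, the 5 that differed most between mice, the 8 of highest mean, the transcription factors and the brightest of each role; others are named to account for every member. Of the signalling genes and the further interferon-stimulated genes, the ligands, the receptors and the leading 3 of each group were named. The members and the lists were chosen with earlier results of these data known. The number of arrays limits the precision.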

Additional observations from a re-analysis of the deposited data

Results flagged for a closer look

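Some genes of the interferon lists differed between spleen and blood in opposite directions in the mice, by at least 0.2 on the log2 scale in each, and this difference between the mice was not tested. Irf8, the factor of monocytes and dendritic cells, had intensities of 244 and 57.6 in spleen of mouse 1 and mouse 2, against 106 and 390 in blood, and its log2 difference in mouse 2, less the one in mouse 1, came to -3.55. For Socs3, the feedback inhibitor of cytokine signals, with 117 and 75.1 in spleen, against 95.9 and 217 in blood, the same quantity was -1.61. For Ifit2 it was -0.82, and for Irf5, with 117 and 92.8 in spleen, against 99.5 and 150 in blood, it was -0.81. Irf8, Socs3 and Irf5 were singled out after their values were seen. Several of these intensities lie below the filter of 106, so their log2 differences depend on the offset.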

How the results depend on the processing

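No interferon response or signalling gene had an adjusted p under 0.05 in any fit that was run, and the number of members lower in both mice stayed between 23 and 27 under every offset, filter, scaling and probe set choice. The share of all genes lower in both mice moved as well. It was 22.5% with the stricter filter, where 23 of 35 tested members were lower. Under quantile normalization it was 30.6%, beside 27 members, and with centring it was 32.6%, beside 26. With mouse as a replicate block 0 members passed. For this fit and the one with no brightness filter, the share of all genes at an unadjusted p under 0.05 is not given here. The block left 10 members lower at that threshold. That count was 4 with no brightness filter, and lay between 0 and 12 when each array was left out. The median difference of the members lay between -0.25 under quantile normalization and -0.17 when probe sets were averaged, and between -0.21 and -0.14 when each array was left out. The fit with an intensity trend called 45 genes and the fit without spleen replicate 1 called 20, with 0 members in either; the cause was not tested. A fit without one array leaves a tissue with 1 array, which is assumed to vary like the 2 of the other tissue. Genes near 0 turned sign under some settings. With quantile normalization Adar differed by -0.056, Ifi47 by -0.053, Ifih1 by -0.046, Irf9 by -0.052 and Trim25 by -0.046. With arrays centred on the median, Adar differed by -0.026, Ifi47 by -0.025, Ifih1 by -0.022 and Irf9 by -0.027. When all probe sets were averaged, Adar differed by -0.051, Dtx3l by 0.033, Eif2ak2 by 0.188, Ifnar1 by -0.098, Ifnar2 by 0.079, Rtp4 by 0.004 and Tlr3 by 0.025. Leaving out each array, the difference lay between -0.037 and 0.054 for Adar, -0.074 and 0.518 for Cxcl10, -0.121 and 0.046 for Dtx3l, -0.177 and 0.115 for Eif2ak2, -0.204 and 0.069 for Gbp3, -0.135 and 0.154 for Ifi47, -0.024 and 0.05 for Ifih1, -0.438 and 0.115 for Ifit2, -0.428 and 0.059 for Ifna2, -0.119 and 0.016 for Ifnar2, -0.165 and 0.182 for Irf9, -0.1 and 0.039 for Lgals3bp, -0.036 and 0.159 for Parp12, -0.204 and 0.028 for Parp14, -0.249 and 0.038 for Rtp4, and -0.024 and 0.098 for Trim25. Of 771 recomputed differences of 60 genes, 40 turned sign. The precision is limited by 2 arrays per tissue.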
